A study of Homo sapiens with 9 samples.

Results

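The floor plate is the strip of cells at the ventral midline of the neural tube, and 6 genes that mark it (SHH, FOXA1, FOXA2, SPON1, CORIN and FERD3L) were followed here through the differentiation of human embryonic stem cells toward serotonin neurons. They were chosen by name, and all 6 were found among the 34961 genes of the deposited table. The cells were of the human embryonic stem cell line WA09 (H9), and every library carried a TPH2-EGFP knock-in, in which a green fluorescent reporter sits at the gene for neuronal tryptophan hydroxylase. RNA was sequenced from stem cells on Day0, from cells labelled as neural progenitors on Day21 and from cells labelled as TPH2+ serotonin neurons on Day42, with 3 libraries per day, and all libraries carry the same label of induced serotonin neuron differentiation. Whether the replicates were differentiated independently is not in the labels, and neither is how the Day42 cells were selected. The p-values therefore describe only how far these libraries spread, which may be technical.

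In the embryo the notochord secretes Sonic hedgehog, which induces the floor plate above it, and the floor plate then secretes the same protein itself. The graded signal sets the identity of ventral progenitors, among them those that give rise to hindbrain serotonin neurons. FOXA2 is both a target and an activator of this programme in the mouse, and the floor plate also secretes matrix proteins that guide axons and carries surface proteins used to sort it.

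Each gene lay in a different place in the genome, except that SHH and FERD3L share chromosome 7 at a great distance. On GRCh38, SHH (ENSG00000164690) spans 155799980 to 155812463 of chromosome 7, FERD3L (ENSG00000146618) 19144782 to 19145421 of chromosome 7, FOXA1 (ENSG00000129514) 37589552 to 37595249 of chromosome 14, and FOXA2 (ENSG00000125798) 22581005 to 22585455 of chromosome 20. CORIN (ENSG00000145244) spans 47593999 to 47838106 of chromosome 4 and SPON1 (ENSG00000262655) 13962723 to 14268133 of chromosome 11, and SPON1 alone is on the plus strand. FERD3L has a single exon of 640 bases in GENCODE release 29, whereas CORIN has up to 22 exons over a span of 244108 bases. No other GENCODE gene overlaps SHH or FOXA1. A model on the same strand overlaps FOXA2 and SPON1, and one on the other strand overlaps SPON1, CORIN and FERD3L, so reads of these 4 genes could be shared, with the strand setting (not given in the sources used here) deciding how.

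Promoters were compared because the 6 genes were all higher on Day21 than on Day0. RefSeq promoter windows on GRCh38.p14, from 250 bases before the gene start to 50 after it, were found for 4 of the 6 genes. FOXA2 and SPON1 were not among them. Those of SHH and FOXA1 are shown as the poorest and the richest of the 4 in GC, and that of CORIN as the one that holds a motif. Capitals mark the only match to either motif searched, the core CCACCCA of the GLI motif and the forkhead motif TGTTTAC, on both strands.
SHH promoter, chr7:155812414-155812713, minus strand: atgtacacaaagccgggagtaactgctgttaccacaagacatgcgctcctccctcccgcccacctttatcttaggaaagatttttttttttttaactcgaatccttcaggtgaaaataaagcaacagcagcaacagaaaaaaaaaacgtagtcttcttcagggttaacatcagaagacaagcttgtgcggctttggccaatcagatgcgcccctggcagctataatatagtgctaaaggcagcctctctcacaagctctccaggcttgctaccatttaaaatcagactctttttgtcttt
FOXA1 promoter, chr14:37595200-37595499, minus strand: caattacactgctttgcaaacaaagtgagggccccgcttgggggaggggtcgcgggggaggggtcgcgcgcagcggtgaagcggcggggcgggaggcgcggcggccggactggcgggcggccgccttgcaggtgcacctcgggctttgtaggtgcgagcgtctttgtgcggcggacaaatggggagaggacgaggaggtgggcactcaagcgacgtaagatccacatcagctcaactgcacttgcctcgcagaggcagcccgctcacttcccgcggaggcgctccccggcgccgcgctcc
CORIN promoter, chr4:47838018-47838317, minus strand: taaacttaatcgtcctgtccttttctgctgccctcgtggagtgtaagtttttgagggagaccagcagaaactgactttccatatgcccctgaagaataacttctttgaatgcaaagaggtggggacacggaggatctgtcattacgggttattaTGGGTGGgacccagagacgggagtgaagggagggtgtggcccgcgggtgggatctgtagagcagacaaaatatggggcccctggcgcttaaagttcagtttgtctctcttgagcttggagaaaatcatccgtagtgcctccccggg
The SHH window had a GC content of 43.3% and 7 CpG dinucleotides, and 17.4% of the 35116 promoter windows of the table had a lower GC content. The FOXA1 window had 69.3% GC and 34 CpG, above 78.0% of windows in GC content. CORIN and FERD3L lay between them, at 51.3% and 51.7% GC with 10 and 11 CpG. The GLI core occurred once, in the CORIN window, with its first base at position -96 from the RefSeq start, which lies inside the deposited gene and not at its end, and 9.19% of all windows hold it. The forkhead motif occurred in none of the 4 windows, and 3.42% of all windows hold it.

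Total counts ranged from 58526466 to 66034630 on Day0, from 63031962 to 66515692 on Day21 and from 59429495 to 69658328 on Day42. Libraries of Day42 held fewer genes, with 16077 and 17101 genes above 0 in replicates 1 and 2 and 10797 in replicate 3, against 24581 to 24741 in Day21 libraries. Of the 20156 genes tested, 51.4% had no count in Day42 replicate 3, 29.2% in replicate 1 and 25.8% in replicate 2, against 4.76% to 5.68% in Day21 libraries. The labelled cell types were checked by summed CPM (counts scaled by library totals and TMM factors). Stem cell markers summed to 759.5 to 1246 CPM on Day0, to 96.0 to 127.9 CPM on Day21 and to at most 5.62 CPM on Day42. Neural progenitor markers, which share SOX2 with them, summed to 953.8 to 1277 CPM on Day21, mostly VIM. Their sums were 101.4 to 146.6 CPM on Day0 and 277.7 to 450.1 CPM on Day42. The Day42 sums were mostly VIM too, at 268.6, 292.4 and 450.0 CPM in replicates 1, 2 and 3. HES5 had no count on Day42, and PAX6 had 0, 0 and 4. Of these 6 markers, edgeR called 4 lower and 0 higher on Day42 against Day21, beside 19.7% and 6.52% of all genes tested. The 7 serotonin neuron markers summed to 1116 to 1345 CPM on Day42 and to at most 8.28 CPM on Day21. Among these markers SLC6A4, the serotonin transporter, had no count in any Day42 library. SLC18A2 had 7596, 9399 and 65 counts in Day42 replicates 1, 2 and 3, and LMX1B had 120, 178 and 0. FEV, DDC, TPH2 and GATA3 each had at least 6986 counts in every Day42 library. Counts piled up at multiples of 4, so a count of 0 was read as allowing up to 12 counts in a library, which in CPM averaged 0.227 for Day0, 0.203 for Day21 and 0.146 for Day42. These limits cover counting error only.

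SHH, the ligand secreted by notochord and floor plate, was without a count on Day0 and had the highest mean per length of the 6 genes on Day21, although FOXA2 lay above it in replicate 1. Its counts were 0 in all 3 Day0 libraries, 1332, 2296 and 3381 in Day21 replicates 1, 2 and 3, and 186, 1536 and 0 in the Day42 replicates in the same order. Every Day21 library thus lay above every Day0 library, while Day42 replicate 3 had no count, as on Day0. In FPKM, the authors' measure of fragments scaled to gene length and library size, SHH stood at 5.44 ± 2.52 on Day21 and 1.53 ± 2.22 on Day42 (SD, n = 3 each). Its Day21 FPKM lay above those of 76.8% to 87.6% of the genes with a count in the same library. The level was 40.8 ± 20.9 CPM on Day21, at least 179-fold the limit for Day0, and 6.83 ± 9.84 CPM on Day42, at least 30.0-fold. The Day42 bound rests mostly on replicate 2 and was 5.24-fold without it. SHH was called higher on Day42 over Day0 (edgeR adjusted p = 0.0358) although the libraries overlapped, and it was not called on Day21 against Day0 (edgeR adjusted p = 0.0764) although they did not. The Day42 call did not hold in 11 of the 17 alternatives that tested it, whose adjusted p ran from 4.74e-05 to 0.186, among them every fit without 1 of the Day0 or Day21 libraries or without Day42 replicate 1 or 2.

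FOXA2 and FOXA1, related forkhead transcription factors that open chromatin in floor plate and endoderm, were near 0 on Day0 and present in every Day21 library. FOXA2 had counts of 0, 8 and 12 in Day0 replicates 1, 2 and 3, then 1133, 745 and 561 in the Day21 replicates, and 0, 291 and 0 in those of Day42. In CPM it averaged 0.114 ± 0.102 for Day0, which is under the limit for that day, 13.4 ± 3.16 for Day21 and 1.14 ± 1.98 for Day42 (SD, n = 3 each). On Day42 a single library, replicate 2, held all its counts, and the level of the other two was 0. FOXA2 differed by 6.84 ± 2.80 on the log2 scale between Day21 and Day0 (edgeR adjusted p = 0.258) and by -3.55 ± 2.39 between Day42 and Day21 (edgeR adjusted p = 0.343). FOXA1 averaged 0.472 ± 0.259 FPKM on Day21, within the spread of CORIN at 0.492 ± 0.109 FPKM, with counts of 0, 0 and 4 in the Day0 libraries, 289, 135 and 100 in those of Day21, and 99, 40 and 0 in those of Day42. It differed by 6.84 ± 2.30 on the log2 scale between Day21 and Day0 (edgeR adjusted p = 0.159) and by -2.28 ± 1.84 between Day42 and Day21 (edgeR adjusted p = 0.439). FOXA2 exceeded FOXA1 in FPKM by 6.66-, 9.36- and 9.60-fold in Day21 replicates 1, 2 and 3 and by 12.4-fold in Day42 replicate 2. In Day42 replicate 1 the order was the other way, with 99 counts of FOXA1 and none of FOXA2.

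FERD3L is a basic helix-loop-helix transcription factor also called NATO3, known in the mouse as a floor plate gene. Its means followed FOXA2 from day to day at a lower level, but within Day21 it was lowest in replicate 1, where FOXA2 was highest. It had no count on Day0, counts of 24, 65 and 35 in Day21 replicates 1, 2 and 3, and 32 counts in Day42 replicate 2 alone. Its level of 0.723 ± 0.427 CPM on Day21 was at least 3.18-fold the limit for Day0 (edgeR adjusted p = 0.186), and its Day42 mean of 0.126 CPM lay under the limit. Because FERD3L is short, its 0.770 ± 0.401 FPKM on Day21 stood close to the 0.814 ± 0.321 FPKM of SPON1 and above FOXA1 and CORIN, with spreads that overlap.

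**Figure D1:**
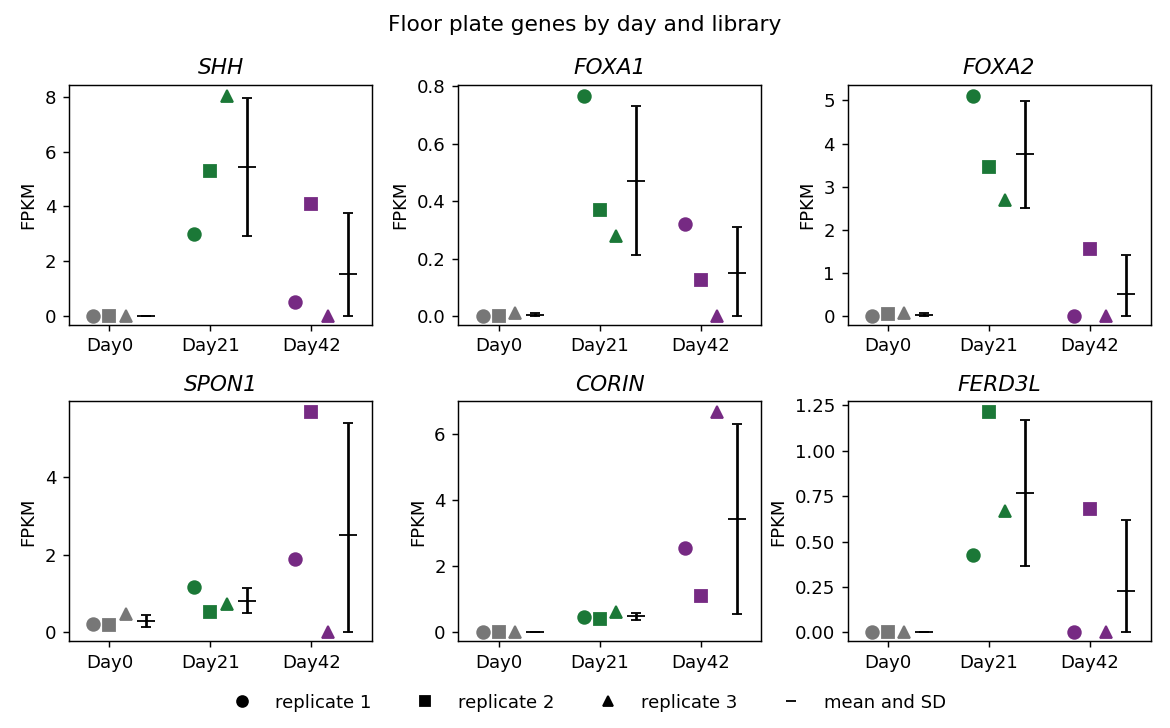
FPKM of each of the 6 genes (vertical axis, own scale per panel) in the libraries of Day0, Day21 and Day42, 1 symbol per library with its shape giving the replicate number, and the mean with SD beside them, the lower bar stopped at 0. All Day21 libraries lie above all Day0 libraries for every gene, and on Day42 replicate 3 is at 0 for all genes but CORIN, where it is highest at 6.67 FPKM.

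CORIN, a transmembrane serine protease that processes a heart hormone and serves as a surface marker of floor plate cells, was the one member with counts in every Day42 library, and its mean level was highest on that day. Its counts were 18, 4 and 0 in Day0 replicates 1, 2 and 3, then 392, 341 and 500 in the Day21 replicates, and 1791, 812 and 5275 in those of Day42. The 3 days did not overlap, since its lowest Day42 level was 9.57 CPM and its highest Day21 level 9.04 CPM. The mean CPM was 0.159 ± 0.215 for Day0, under the limit, 6.99 ± 1.80 for Day21 and 31.7 ± 27.6 for Day42 (SD, n = 3 each), and the Day42 mean was 16.3 CPM without replicate 3. CORIN rose by 7.65 ± 1.67 on the log2 scale on Day42 against Day0 (edgeR adjusted p = 0.00903), and it was called in each of the 18 alternatives tried, with an adjusted p between 1.67e-09 and 0.0425. The differences between Day21 and Day0 (5.47 ± 1.52, edgeR adjusted p = 0.0862) and between Day42 and Day21 (2.18 ± 1.30, edgeR adjusted p = 0.274) did not pass.

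SPON1, the secreted matrix protein F-spondin, which was found in the floor plate and guides commissural axons, was the one member with counts in all Day0 libraries. Its counts were 82, 88 and 206 in Day0 replicates 1, 2 and 3, then 529, 237 and 316 in the Day21 replicates, and 704, 2164 and 0 in those of Day42. Day21 libraries lay above Day0 libraries, while the Day42 libraries reached both above and below every other library. The mean CPM was 2.26 ± 0.956 for Day0, 5.91 ± 1.68 for Day21 and 11.5 ± 12.9 for Day42 (SD, n = 3 each), and the Day42 mean was 4.51 CPM without replicate 2. With all 9 libraries SPON1 was not called in any comparison (lowest edgeR adjusted p = 0.376, between Day42 and Day0).

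On Day21 against Day0, the question was whether the midline genes appear as stem cells become progenitors. All 6 genes had Day21 libraries apart from and above the Day0 libraries, as did 24.7% of all genes tested. edgeR with all 9 libraries called 0 of the 6 higher, against a background of 1.32% of genes, and 0 lower, against 1.18%, and 5 of the 6 had an unadjusted p under 0.05, against 8.02%. With only the 2 days compared in the model all 6 were called higher, against a background of 13%. DESeq2 called 5 of 6, against 7.43%, and voom with sample quality weights 5 of 6, against 18.5%, while limma on log2(FPKM + 1) called SHH and FOXA2, against 5.8%, and on log2(FPKM + 0.1) CORIN as well, against 6.35%. Without Day42 replicate 3, which takes no part in the comparison itself but shares the estimate of spread, edgeR called 3, namely SHH, FOXA1 and CORIN (adjusted p = 0.00454, 0.0199 and 0.0264), against 6.57%. The median difference of the 6 genes was 6.84 on the log2 scale, beside 0.03 over all genes tested. In bulk libraries more cells of a type and more RNA per cell cannot be told apart.

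On Day42 against Day21 the direction of the difference varied between the genes, and edgeR with all 9 libraries called none of them. By CPM, SHH, FOXA1 and FOXA2 lay below their Day21 libraries, as did 34.7% of genes tested, CORIN lay above, as did 11.1%, and SPON1 and FERD3L overlapped. By FPKM, FOXA2 alone lay below, and the ranges of SHH and FOXA1 overlapped. edgeR called 0 of 6 in either direction, against backgrounds of 6.52% higher and 19.7% lower, and 0 had an unadjusted p under 0.05, against 10.4% higher and 26.5% lower. DESeq2 also called 0, against 11.3% higher and 27.2% lower, and so did voom, against 7.95% and 14.5%. In contrast, limma on log2(FPKM + 1) called CORIN higher, against 19.9%, and SHH and FOXA2 lower, against 16.6% (adjusted p = 0.0207, 0.0433 and 0.00465). On log2(FPKM + 0.1) it called CORIN higher, against 20.4%, and FOXA2 lower, against 17.9%. The median difference was -2.39 on the log2 scale, beside -0.54 over all genes tested. Without Day42 replicate 2, FOXA2 and FERD3L were called lower (edgeR adjusted p = 0.00866 and 0.0241), against 23.3%.

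On Day42 against Day0, SHH and CORIN were the 2 members called higher by edgeR, against 8.82% of genes, and 0 were called lower, against 23.4%. CORIN alone kept its Day42 libraries apart from Day0, as did 11.4% of genes. Without Day42 replicate 3 the count was 4, adding FOXA1 and SPON1 (edgeR adjusted p = 0.0196 and 0.00613), against 14.8%, and without any other single library it was 1. CORIN alone was called by limma on log2(FPKM + 1), against 22%, and on log2(FPKM + 0.1), against 22.7%. It was also the only call with the replicate number as a block, against 5.21%, and with only the 2 days compared, against 6.89%. In the fit of only the 2 days, SHH, FOXA1, FOXA2 and FERD3L did not pass the filter on low counts. Only CORIN and SPON1 were thus tested there. DESeq2 and voom each called 3, adding FOXA1 (adjusted p = 0.0368 and 0.0133), against 14% and 10.9%. The order of mean CPM was thus Day0, Day42, Day21 for SHH, FOXA1, FOXA2 and FERD3L and Day0, Day21, Day42 for SPON1 and CORIN. Libraries of Day0 and Day42 overlapped for all of these but CORIN, and libraries of Day21 and Day42 overlapped for FERD3L and SPON1.

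**Figure D2:**
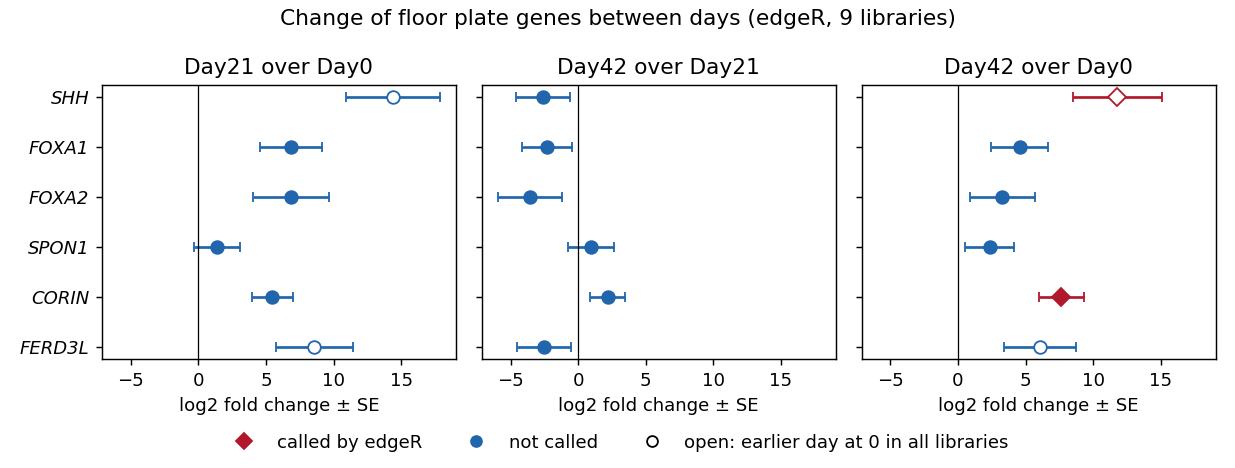
Log2 fold change with its SE (horizontal axis) of the 6 genes (rows) in the 3 comparisons, from edgeR with all 9 libraries. Red diamonds are called genes, which are SHH and CORIN on Day42 over Day0, and open symbols are fits against a day without any count, whose size depends on the prior count.

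The make-up of the summed FPKM of the 6 genes differed between libraries of a day as well as between days. The sum was 0.240, 0.245 and 0.550 FPKM in Day0 replicates 1, 2 and 3, 10.9, 11.3 and 13.0 FPKM on Day21, and 5.27, 13.2 and 6.67 FPKM on Day42. On Day0, SPON1 made up 83.2% to 89.9% of the sum. On Day21, SHH and FOXA2 together led, but in different order. In replicate 1 FOXA2 held 46.8% and SHH 27.4%, in replicate 2 SHH held 47.0% and FOXA2 30.7%, and in replicate 3 SHH held 61.7% and FOXA2 20.6%. The FOXA2 to SHH ratio in FPKM was 1.71, 0.652 and 0.334 in Day21 replicates 1, 2 and 3. FOXA1, FOXA2 and SPON1 were thus highest in the Day21 replicate in which SHH was lowest. On Day42, replicate 1 was led by CORIN with 48.3% and SPON1 with 36.0%, replicate 2 by SPON1 with 42.8% and SHH with 30.9%, and in replicate 3 CORIN was the whole sum. Day42 replicate 2 was the one library of that day with counts of all 6 genes, and replicate 3 had no count for 5 of them. Among the 7666 tested genes with a Day21 mean within the range of the members (0.472 to 5.44 FPKM), 45.9% had no count in Day42 replicate 3, 19.1% in replicate 1 and 15.8% in replicate 2.

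**Figure D3:**
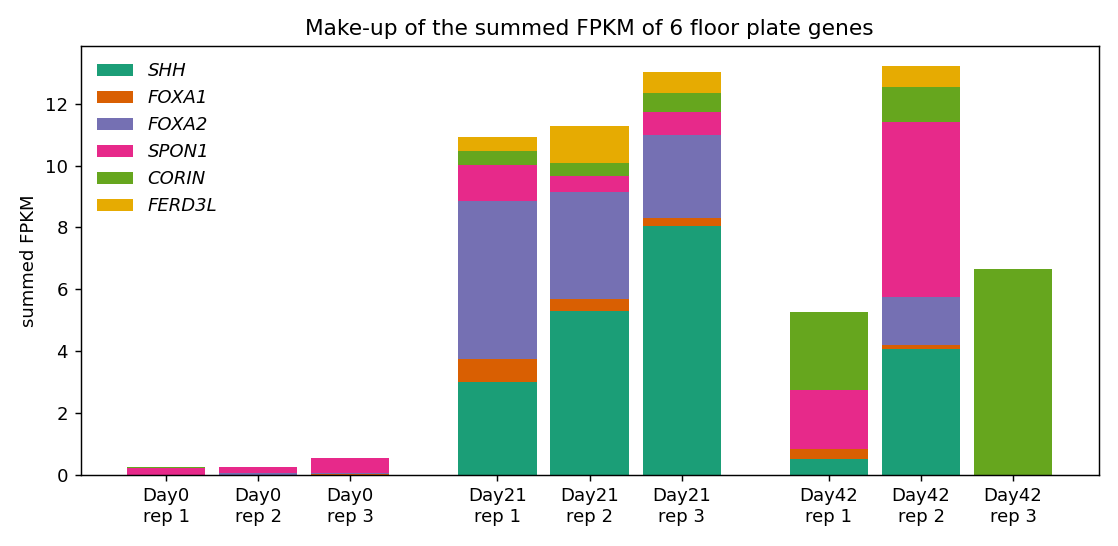
Summed FPKM of the 6 floor plate genes (vertical axis) in each of the 9 libraries, with a coloured part for each gene. The sum is at most 0.550 FPKM on Day0 and 10.9 to 13.0 FPKM on Day21, and in Day42 replicate 3 its 6.67 FPKM are CORIN alone.

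The other genes of the Hedgehog pathway, through which SHH acts, were set beside all genes tested. Of 16 pathway genes 14 were tested, and edgeR called 0 higher and 0 lower on Day21 against Day0, 0 higher and 6 lower on Day42 against Day21, and 0 higher and 5 lower on Day42 against Day0. Of all genes tested, 1.32% were called higher and 1.18% lower in the first of these comparisons, 6.52% and 19.7% in the second, and 8.82% and 23.4% in the third, so lower calls outnumbered higher calls on Day42 in the whole table too. The median differences of the pathway genes were 1.07, -2.92 and -1.35 on the log2 scale, beside 0.03, -0.54 and -0.57 over all genes tested. PTCH1, the SHH receptor and itself a target of the pathway, averaged 1.46 ± 0.149 CPM for Day0, 13.6 ± 6.96 for Day21 and 0.605 ± 0.464 for Day42 (SD, n = 3 each), and fell by 4.49 ± 1.02 on the log2 scale on Day42 against Day21 (edgeR adjusted p = 0.0126). GLI1, the transcription factor induced by the signal, had counts of 42, 40 and 64 in the Day0 libraries, 84, 88 and 45 in those of Day21, and none in those of Day42. GLI2, its activating relative, had 1203, 775 and 4464 counts in Day0 libraries, 3449, 1624 and 1091 on Day21 and none on Day42. GLI3, the main repressor of the family, had 766, 550 and 2200 counts on Day0. Its counts were 4644, 2087 and 1504 on Day21 and 0, 0 and 4 on Day42. Stem cells without a count of SHH thus already held GLI2 and GLI3. The 3 GLI genes fell on Day42 against Day21 (edgeR adjusted p at most 0.00302), and the 2 Day42 libraries with SHH counts had no count of any of them. DISP1, which releases the ligand from its cell, had 294, 1087 and 11054 counts in Day42 replicates 1, 2 and 3, and was not called.

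Other genes of the ventral midline gave a mixed picture. Of 13 such genes 12 were tested, and edgeR called 1 higher and 0 lower on Day21 against Day0, 2 higher and 4 lower on Day42 against Day21, and 6 higher and 1 lower on Day42 against Day0. The shares of all genes tested were 1.32% higher and 1.18% lower, 6.52% and 19.7%, and 8.82% and 23.4% in these comparisons. The median differences of the list were 4.38, -0.97 and 2.81 on the log2 scale. All 13 had counts in every Day21 library, as did the 6 members, and 5 of them had no count on Day42. NKX6-1, a ventral progenitor factor, was the gene called on Day21, with 345, 203 and 290 counts, against none on Day0 (edgeR adjusted p = 0.0485), and it had none on Day42. NKX2-2, the factor of the progenitors beside the floor plate, had no count on Day0, then 662, 510 and 480 in the Day21 libraries, and 196, 723 and 0 in those of Day42, so that, like SHH, it was present in Day42 replicates 1 and 2 and absent from replicate 3. VTN, the matrix protein vitronectin, had 303, 324 and 326 counts on Day21 and none on Day42 (edgeR adjusted p = 0.0192). SULF1 and ALCAM went the other way and were called higher on Day42 against Day21 (edgeR adjusted p = 0.00201 and 0.0151). SULF1 had 536, 387 and 441 counts on Day21 and 8661, 4768 and 5623 on Day42. ALCAM had 971, 572 and 652 counts on Day21 and 2745, 4123 and 18154 on Day42. The 6 genes called higher on Day42 against Day0 were SULF1, SULF2, SLIT2, SLIT3, ALCAM and NKX2-2.

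**Figure D4:**
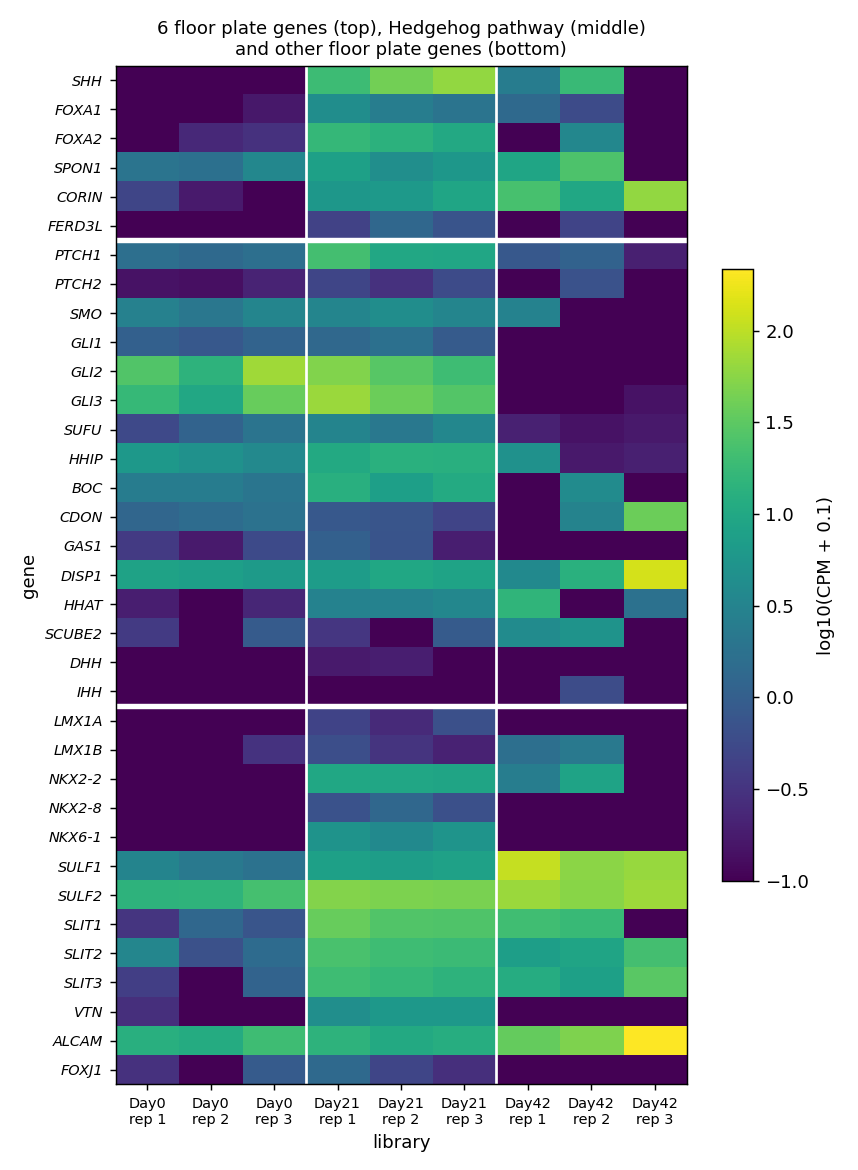
Level of the 6 floor plate genes, 16 Hedgehog pathway genes and 13 other floor plate genes (rows) in the 9 libraries (columns), as log10(CPM + 0.1), with bright cells high and the darkest cells at 0. CORIN, DISP1 and ALCAM are bright in Day42 replicate 3, where 5 of the 6 floor plate genes are at 0.

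Other cell types that express these genes were examined by lists of their markers. FOXA1, FOXA2 and SHH are also expressed in endoderm, but SOX17 and GATA6, which define it, had no count in any Day21 library, and FOXA3, their forkhead relative, had 5, 0 and 0 counts there. Of 9 endoderm genes, 4 to 5 were at 0 in each Day21 library and the list summed to 24.8 to 33.9 CPM on Day21, mostly CXCR4, against 32.4 to 54.8 CPM on Day0. TBXT and NOTO, which define the notochord, the embryo's other source of SHH, had no count on Day21. The other genes of this list of 4, which encode secreted inhibitors of BMP signalling, did have counts, with 24, 38 and 87 of NOG on Day21, against 8, 3 and 0 on Day0, and 21, 8 and 13 of CHRD on Day21, against none on Day0. The list summed to 0.653 to 1.81 CPM, against 0.291 to 1.01 CPM on Day0. Mesenchyme genes summed to 561.7 to 606.6 CPM on Day21, against 19.6 to 31.3 CPM on Day0, and to 118.7 to 156.8 CPM on Day42. None of the 7 was at 0 on Day21. The largest Day21 means were those of LUM, COL3A1 and DCN, at 319.9, 116.2 and 90.3 CPM. PDGFRA alone went the other way, from a mean of 18.3 CPM on Day0 to 2.42 CPM on Day21. The part of mesenchyme genes in the levels of the 6 floor plate genes was not tested. Dorsal neural tube genes summed to 12.3 to 14.5 CPM on Day21, against 1.68 to 3.52 CPM on Day0, and to 0.179, 9.29 and 0 CPM in Day42 replicates 1, 2 and 3. Glial genes summed to 25.5 to 35.2 CPM on Day21 and 1.77 to 13.8 CPM on Day42, and edgeR called 0 of the 5 tested higher in any comparison. It called 3 of them lower on Day42 against Day21, beside 19.7% of all genes tested, and 3 lower on Day42 against Day0, beside 23.4%, namely GFAP, AQP4 and OLIG1 each time.

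The genes most like each member over the 9 libraries were found by Pearson correlation of log2 CPM among 6433 tested genes with a mean of at least 5 FPKM on their highest day. The libraries form 3 days, so these values describe a shared course and carry no test. For SHH the nearest was LUM, a matrix proteoglycan (r = 0.989), with 17672, 19749 and 18947 counts in Day21 replicates 1, 2 and 3 and 2760, 8693 and 0 on Day42, followed by the noncoding PANTR1 (r = 0.981). LUM was also nearest to FOXA1 (r = 0.963). For FOXA2 it was AL096828 (r = 0.959), and for FERD3L it was CFAP126, a cilium gene (r = 0.958), with 583, 423 and 658 counts on Day21 and 0, 157 and 0 on Day42. For SPON1 it was ZNF627 (r = 0.987), IER3 (r = 0.987) and SPRY2, a feedback inhibitor of growth factor signalling (r = 0.986). CORIN was closest to CAMK1 (r = 0.980), YAF2 (r = 0.979) and DIO3, a thyroid hormone deiodinase (r = 0.975), which had 4, 0 and 0 counts in the Day0 libraries, 446, 268 and 258 in those of Day21 and 3041, 2351 and 4904 in those of Day42. Between members, r was 0.943 for FOXA2 and FERD3L and 0.934 for SHH and FOXA1, against 0.156 for FOXA2 and CORIN and -0.133 for SPON1 and CORIN.

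The nearest genes on the chromosome, chosen after the data were seen, were also compared. LINC00261, a long noncoding RNA 2363 bases from FOXA2, had 0, 0 and 4 counts in the Day0 libraries, 235, 217 and 200 in those of Day21 and none in those of Day42, and fell on Day42 against Day21 (edgeR adjusted p = 0.0112). It was at 0 in Day42 replicate 2 as well, where FOXA2 had 291 counts. LNCNEF, 2067 bases from the other end of FOXA2, had 8, 0 and 4 counts on Day0 and none later. TTC6, which lies 598 bases from FOXA1, had 70, 55 and 65 counts on Day21, against 9, 0 and 14 on Day0 (edgeR adjusted p = 0.676). TWIST1, a mesenchymal factor 27664 bases from FERD3L, had 122, 101 and 158 counts on Day21, against 0, 18 and 0 on Day0 (edgeR adjusted p = 0.440). RBM33, 18500 bases from SHH, had 497, 574 and 1422 counts on Day0, and ATP10D, 513 bases from CORIN, had 257, 187 and 0 counts in Day42 replicates 1, 2 and 3.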

How the data were processed

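Libraries were made with a NEBNext low input kit from about 10 ng of Trizol-extracted RNA, per the labels' protocols. Cutadapt 1.9, FastQC and GRCh38 appear in the submitters' processing notes. Steps such as alignment, counting, strand setting and annotation (not given in the sources used here) were done by the authors. The deposited table holds raw counts per gene, per the file headers and the values, and FPKM computed by the authors with gene lengths that are not stated. Each value column was assigned to its library by the label in its name, and 0 columns were left over.

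Counts of 4 occurred 7999 times, a ratio of 2.17 to the mean of their neighbours, so a limit of 3 steps of 4 counts was used for a count of 0. Genes were filtered with filterByExpr (20156 kept, all 6 members among them), scaled by TMM and fitted with edgeR 4.0.16 in R 4.3.3 (quasi-likelihood test, 1 mean per day, 9 libraries). A call needed a Benjamini-Hochberg adjusted p under 0.05 over all genes together with a log2 fold change of 1 or more in size. The SE is the log2 change divided by the root of its F statistic. Alternatives used DESeq2 1.42.0, limma 3.58.1 on FPKM, other filters and scaling, 2 days, a replicate block, and leaving out each library. The members, lists and tests were chosen with earlier results of these data known. Other genes were named as up to 4 for each list (the largest changes among called genes, otherwise the most expressed), plus the 3 most correlated with each member, and a few named outside this were chosen after their values were seen. Not all genes so named are described. GATA4 was not analysed here, and 1 gene of the list of other floor plate genes is not reported here. No 2 libraries shared counts in more than 2.55% of genes. Promoter sequences are from RefSeq.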

Additional observations from a re-analysis of the deposited data

How the results depend on the processing

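The number of members called higher on Day21 against Day0, 0 by edgeR with all 9 libraries, was 5 with DESeq2, 2 and 3 with limma on FPKM with pseudocounts of 1 and 0.1, 6 with only the 2 days compared and 5 with voom, and 0 to 3 when 1 library was left out. On Day42 against Day21, limma with both pseudocounts called 1 higher, and 2 and 1 lower, where edgeR called 0, and leaving out 1 library gave 0 to 2 lower. On Day42 against Day0, the 2 called higher became 1 with limma at either pseudocount, with only the 2 days compared and with the replicate block, and 1 to 4 when 1 library was left out. The cause was not tested. A pair of single differences changed sign, both without Day42 replicate 2. SPON1 on Day42 against Day21 was -0.37 on the log2 scale there (edgeR adjusted p = 0.927) and ranged from -0.37 to 1.55 when 1 library was left out. FOXA2 on Day42 against Day0 was -5.87 there (edgeR adjusted p = 0.0532) and ranged from -5.87 to 3.91. Median-of-ratios scaling changed no count of members called, and it moved the median log2 change of all genes by at most 0.03. That median was 0.02 on Day42 against Day21 with limma on log2(FPKM + 1), beside -0.54 with edgeR.

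Whether replicate numbers pair the libraries could not be settled. Same-numbered libraries of Day21 and Day0 had correlations of -0.127, 0.0266 and -0.225 in their deviations from the day means. Differently numbered libraries had correlations from -0.182 to 0.301. With 3 libraries per day these deviations are tied to each other, so the values cannot decide it. With the replicate block edgeR called 109, 2420 and 3710 genes in all on Day21 against Day0, Day42 against Day21 and Day42 against Day0, where it called 504, 5295 and 6499 without it. Under the block SHH on Day42 against Day0 had an adjusted p of 0.114. FOXA1 and FERD3L are missing from the limma fits and the FPKM filter, which they do not pass. SHH, FOXA1, FOXA2 and FERD3L are missing from the fit of Day42 and Day0 alone. Levels under about 12 counts in a library are beyond this depth.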
